A study of Mus musculus with 14 samples.

Results

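The chemokine receptors examined here are Cxcr3, Cxcr6, Cx3cr1, Ccr9 and Ccr2, which direct CD8+ T cells to inflamed tissue or to the gut. They were chosen by name: each of the 5 symbols was looked up among the 10106 genes of the expression table, and all 5 were found. Chemokine receptors are G protein-coupled receptors that make a cell migrate towards a source of their ligand. Resting CD8+ T cells circulate through lymphoid organs with the help of Ccr7, and stimulated cells exchange part of that equipment for receptors of peripheral tissue. Cxcr3, Cxcr6, Cx3cr1 and Ccr2 are best known from effector and memory cells, whereas Ccr9 is known both from developing and recent thymus-derived T cells and from cells that home to the small intestine.

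The study measured polyadenylated RNA in OTI CD8+ T cells that had met antigen carried on erythrocytes, antigen given free, or none. OTI cells share 1 transgenic receptor that recognises SIINFEKL, a peptide of ovalbumin, and mice were 8 to 12 weeks old. CFSE-labelled cells went by vein into C57BL6j (CD45.2+) recipients on day 0, antigen followed on day 1 at 223 pmol, and spleens were taken on day 4. CD3e+ CD8+ CD45.1+ cells were then sorted from the spleen. The groups were ERY1-OVA (ovalbumin targeted to erythrocytes, 3 libraries), TER119-SIINFEKL (the peptide targeted to erythrocytes, 3 libraries), OVA (soluble ovalbumin, 3 libraries), SIINFEKL (soluble peptide, 2 libraries) and Naive (recipients that had saline in place of antigen, 3 libraries). The transfer, the transgenic receptor, the CFSE label and the sort were thus common to all 14 libraries, Naive included. Every transferred cell had the same receptor, and the labels describe no depletion of the recipients' own T cells. Nothing in the labels says that each library came from a different mouse, so p-values measure the spread between these libraries, which may be partly technical.

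Levels below are RPKM (reads scaled to transcript length and library size), back-transformed from the deposited log2 values. Fold changes are on the log2 scale with the standard error (SE) from limma, fitted to 9793 genes, and a gene is called when its Benjamini-Hochberg adjusted p is under 0.05. The 14 libraries had effective sizes of 38389038 to 88721038 reads. Cd3e lay between 301.3 and 431.1 RPKM and Cd8a between 246.9 and 398.5 RPKM in every library, while Cd4 lay between 0.18 and 1.31 RPKM. The first replicates of OVA and TER119-SIINFEKL had the highest sums of markers of another cell type. Not every listed marker was highest there: Itgax was at 2.00 RPKM in TER119-SIINFEKL replicate 1 and 2.37 RPKM in Naive replicate 3. The markers of dendritic cells (4 of 9 listed genes measured, among them Cd74, H2-Aa and Itgax) summed to 62.3 RPKM in OVA replicate 1 and 32.7 RPKM in TER119-SIINFEKL replicate 1. The sums were 7.10 to 26.3 RPKM in the ERY1-OVA, SIINFEKL and Naive libraries. A trend of the deviation from the group mean with gene length was present in many libraries. Its rank correlation across genes was -0.45 and -0.41 in the first replicates of OVA and TER119-SIINFEKL and between -0.3 and 0.48 in the other 12. Values of single genes without both of these first replicates are given only for Cxcr3, Cxcr6, Cx3cr1, Ccr9 and Ccr2. They are given where leaving both out turned a direction, changed a call or moved a called value by over 1.5 times. No such value is given for the other genes named below, whose dependence on these libraries was not tested.

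Cxcr3 and Ccr9 moved in opposite directions after every form of antigen. Cxcr3, the receptor for the interferon-induced chemokines CXCL9, CXCL10 and CXCL11, was higher than in Naive cells in all 4 antigen groups. Ccr9, the receptor for CCL25 of thymus and small intestine, was lower in all 4. Cxcr6 and Cx3cr1 were lower than in Naive cells in all 4 antigen groups by their means, and were called in 3 groups each. Ccr2 was lower in 3 groups and close to Naive after OVA. Of the 5 receptors, 5 were called in ERY1-OVA against Naive (39.9% of all genes tested were called), 4 in TER119-SIINFEKL against Naive (47.6% of all genes), 3 in OVA against Naive (47.6% of all genes) and 5 in SIINFEKL against Naive (15.9% of all genes). Calls were common among all genes except in SIINFEKL against Naive. The receptors were chosen with earlier results of these data known, so these counts alone do not set them apart. The 4 comparisons share the 3 Naive libraries and are not independent of each other.

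**Figure D1:**
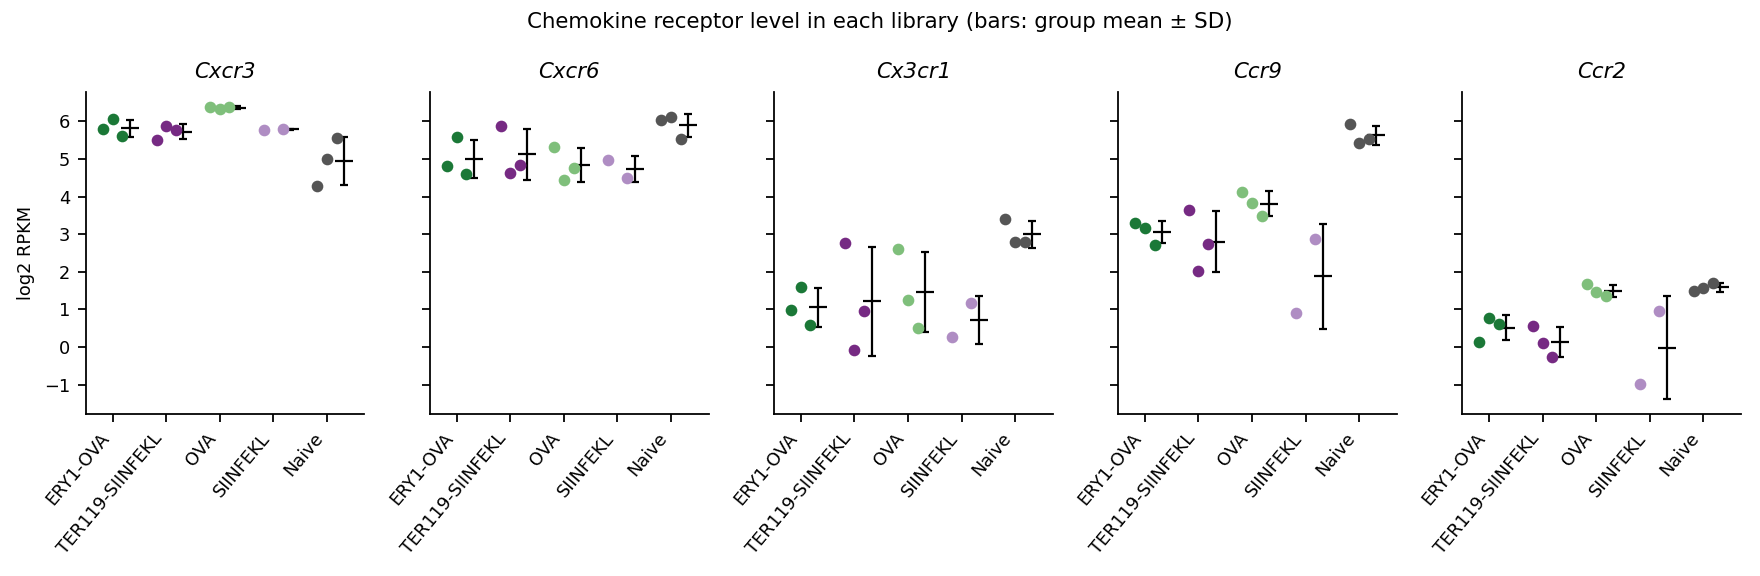
Level of each receptor as log2 RPKM (vertical axis) in all 14 libraries, by group (horizontal axis). Points are libraries, and bars are the group mean ± SD (n = 3, and 2 for SIINFEKL). Ccr9 is highest in the 3 Naive libraries and Cxcr3 highest in the 3 OVA libraries, while Cx3cr1 is spread widely within OVA and TER119-SIINFEKL.

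The promoters of the receptor that rose and of the neighbours that fell are shown because the data separate them. Cxcr3 lies on chromosome X (GRCm38, chrX:101731535-101734269, minus strand). The other 4 lie on chromosome 9 within 4.21 Mb, Ccr9 at chr9:123678439-123784330, Cxcr6 at chr9:123806475-123811760 and Ccr2 at chr9:124101950-124113557 on the plus strand, and Cx3cr1 at chr9:119901616-120069879 on the minus strand (GENCODE M21). The sequences below are the 250 bases before each RefSeq start site (GRCm38.p6), written 5′ to 3′ on the strand of the gene. RefSeq starts differ from the GENCODE gene ends. The window of Ccr9 lies inside its GENCODE gene, and that of Cxcr3 does so in part. Capitals mark TCACAC, the core bound by T-box factors, and TGTGGT, the core bound by RUNX factors, searched on both strands.
Cxcr3, chrX:101734148-101734397, minus strand: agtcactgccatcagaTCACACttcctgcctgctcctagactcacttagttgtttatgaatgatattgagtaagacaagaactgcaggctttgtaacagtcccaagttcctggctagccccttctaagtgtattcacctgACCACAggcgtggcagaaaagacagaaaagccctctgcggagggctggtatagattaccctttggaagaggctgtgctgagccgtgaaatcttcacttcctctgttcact
Ccr9, chr9:123766961-123767210, plus strand: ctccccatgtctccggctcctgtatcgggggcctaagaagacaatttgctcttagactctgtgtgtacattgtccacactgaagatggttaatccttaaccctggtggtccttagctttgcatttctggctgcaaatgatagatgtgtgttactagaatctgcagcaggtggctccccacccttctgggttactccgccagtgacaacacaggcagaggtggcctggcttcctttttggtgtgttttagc
Cxcr6, chr9:123806227-123806476, plus strand: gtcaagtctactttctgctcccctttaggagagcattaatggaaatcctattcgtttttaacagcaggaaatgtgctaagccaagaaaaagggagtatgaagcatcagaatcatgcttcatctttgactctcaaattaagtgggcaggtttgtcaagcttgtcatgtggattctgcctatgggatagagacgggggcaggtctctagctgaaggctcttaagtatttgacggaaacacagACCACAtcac
Among all 32851 RefSeq promoters of this length, 12.3% held the T-box letters and 14% the RUNX letters. Cxcr3 held a T-box match 234 bases and a RUNX match 110 bases before the start, Cxcr6 a RUNX match 10 bases before it, and Ccr9 had neither in this window. Cx3cr1 held a RUNX match 54 bases before its start, and Ccr2 had neither. No matches overlapped. These are matches of letters and not measured binding.

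Cxcr3 was at 55.1, 66.6 and 48.7 RPKM in ERY1-OVA cells, 45.2, 59.1 and 54.7 RPKM in TER119-SIINFEKL cells, 83, 80.2 and 84.0 RPKM in OVA cells, 54.8 and 55.4 RPKM in SIINFEKL cells, and 19.6, 32.1 and 47.5 RPKM in Naive cells. The OVA libraries were close to each other and above all 11 others. Naive libraries were the most variable, and only TER119-SIINFEKL, through its replicate 1, overlapped them. The log2 fold change from Naive was 0.86 ± 0.23 (SE, 3 against 3 libraries, limma adjusted p = 0.01) for ERY1-OVA, 0.76 ± 0.23 (adjusted p = 0.016) for TER119-SIINFEKL, 1.41 ± 0.23 (adjusted p = 0.00033) for OVA and 0.83 ± 0.26 (2 against 3 libraries, adjusted p = 0.046) for SIINFEKL. In RPKM the OVA mean was 82.4 ± 2.0 (SD, n = 3), against 33.0 ± 14 in Naive cells (SD, n = 3). The OVA and ERY1-OVA calls held under every alternative tried, the ERY1-OVA call with adjusted p up to 0.048 and a value of 0.53 without Naive replicate 1. The TER119-SIINFEKL call was lost without Naive replicate 1 or TER119-SIINFEKL replicate 2 (adjusted p up to 0.065, value 0.43 without Naive replicate 1), and the SIINFEKL call was lost in 16 of 28 alternatives, with adjusted p up to 0.23 and a value of 0.50 without Naive replicate 1. Those 16 include the fits without either SIINFEKL library, any OVA or ERY1-OVA library, Naive replicate 1 or 2, or TER119-SIINFEKL replicate 2 or 3. Without both first replicates of TER119-SIINFEKL and OVA, Cxcr3 was at 0.87 after TER119-SIINFEKL (adjusted p = 0.021) and 1.40 after OVA (adjusted p = 0.0018), and the SIINFEKL call was lost (adjusted p = 0.052).

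Ccr9 had the widest range of the 5 receptors. It stood at 9.77, 8.98 and 6.60 RPKM in ERY1-OVA cells, 12.4, 4.05 and 6.68 RPKM in TER119-SIINFEKL cells, 17.5, 14.1 and 11.1 RPKM in OVA cells, 1.86 and 7.29 RPKM in SIINFEKL cells, and 60.5, 43.2 and 46.0 RPKM in Naive cells. Every Naive library lay above every antigen library. The log2 fold change was -2.57 ± 0.44 (SE, 3 against 3 libraries, limma adjusted p = 5e-04) for ERY1-OVA, -2.83 ± 0.44 (adjusted p = 0.00017) for TER119-SIINFEKL, -1.82 ± 0.44 (adjusted p = 0.0043) for OVA and -3.74 ± 0.49 (2 against 3 libraries, adjusted p = 0.00036) for SIINFEKL. All 4 calls held under every alternative, including the fit without the first replicates of OVA and TER119-SIINFEKL (-1.98 for OVA and -3.25 for TER119-SIINFEKL). In bulk RNA, fewer cells with the transcript and less transcript per cell cannot be told apart. The span of group means of Ccr9, 3.74 log2 units, exceeded that of 98.5% of the genes tested. In the annotation the gene overlaps Lztfl1 and AC165425.1 on the other strand, and the counting setting for strand is not given in the sources used here.

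Cxcr3 exceeded Ccr9 in all 11 antigen libraries, whereas in Naive cells they were nearer. The ratio of Cxcr3 to Ccr9 was 5.64 to 7.42 in ERY1-OVA cells, 3.64 to 14.6 in TER119-SIINFEKL cells, 4.73 to 7.56 in OVA cells, 7.60 and 29.4 in SIINFEKL cells, and 0.324 to 1.03 in Naive cells. In 7 libraries, Naive replicate 3 among them, the order was Cxcr3, Cxcr6, Ccr9, Cx3cr1 and Ccr2 from high to low, and in 4 more only the lowest pair was exchanged. Naive replicates 1 and 2 instead had Cxcr6 highest, then Ccr9, then Cxcr3, and TER119-SIINFEKL replicate 1 had Cxcr6 above Cxcr3. Cxcr3 made up 51.9% to 58.9% of the summed RPKM of the 5 receptors in ERY1-OVA cells, 36.1% to 65.7% in TER119-SIINFEKL cells, 55.4% to 66.6% in OVA cells, 61.2% and 62.1% in SIINFEKL cells, and 12.3% to 31.6% in Naive cells. The sum itself was also lower, at 82.7 to 150.0 RPKM across antigen libraries, against 150.2 to 159.1 RPKM in Naive libraries.

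**Figure D2:**
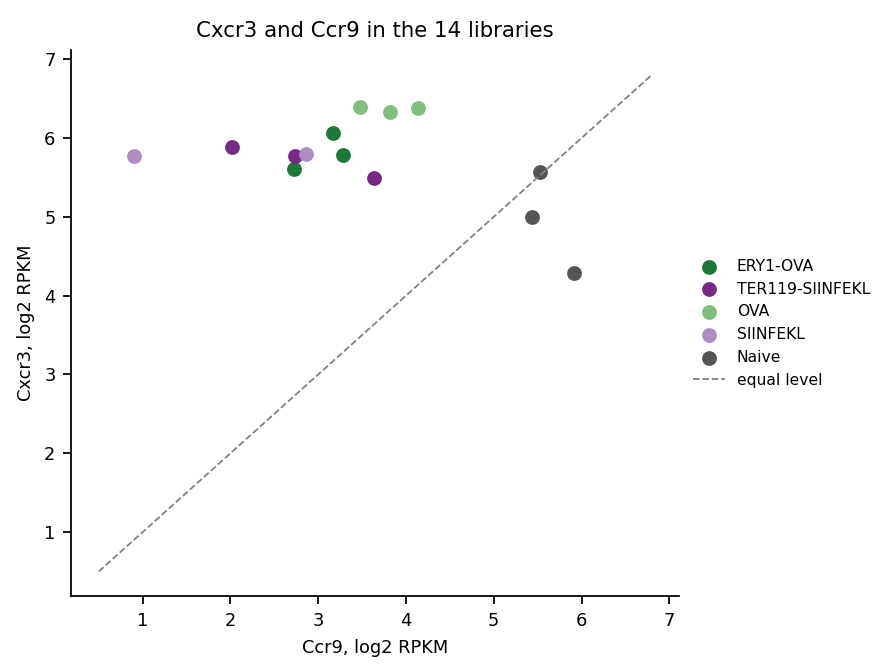
Cxcr3 (vertical axis) against Ccr9 (horizontal axis), both in log2 RPKM, with 1 point per library and the colour giving the group. The dashed line marks equal levels. All 11 antigen libraries lie above the line, with Ccr9 at 4.13 or less, and the 3 Naive libraries lie near or below it, with Ccr9 at 5.43 or more.

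Cxcr6, the receptor for the membrane-bound chemokine CXCL16 and a marker of tissue-resident CD8+ T cells, was abundant already in Naive cells. It was at 28.0, 48.0 and 24.4 RPKM in ERY1-OVA cells, 59.2, 24.9 and 28.5 RPKM in TER119-SIINFEKL cells, 40.1, 21.8 and 27.0 RPKM in OVA cells, 31.3 and 22.4 RPKM in SIINFEKL cells, and 65.6, 69.1 and 46.6 RPKM in Naive cells. ERY1-OVA replicate 2 and TER119-SIINFEKL replicate 1 reached the Naive range, and the OVA and SIINFEKL libraries did not. The log2 fold change was -0.90 ± 0.33 (SE, 3 against 3 libraries, limma adjusted p = 0.045) for ERY1-OVA, -0.78 ± 0.33 (adjusted p = 0.069, not called) for TER119-SIINFEKL, -1.06 ± 0.33 (adjusted p = 0.019) for OVA and -1.17 ± 0.37 (2 against 3 libraries, adjusted p = 0.047) for SIINFEKL. Without replicate 1 the TER119-SIINFEKL value was -1.16 (adjusted p = 0.0079). The other calls were marginal: leaving out a library or changing a setting ended the ERY1-OVA call in 8 of 29 alternatives (adjusted p up to 0.16), the OVA call in 4 of 29 (up to 0.075) and the SIINFEKL call in 12 of 28 (up to 0.17). The ERY1-OVA call was lost without ERY1-OVA replicate 1 or 3, OVA replicate 3, TER119-SIINFEKL replicate 3 or Naive replicate 1 or 2, and the OVA call without OVA replicate 2 or 3 or Naive replicate 1 or 2. The SIINFEKL call was lost without either of its libraries or any Naive library, and without OVA replicate 2 or 3, ERY1-OVA replicate 1 or TER119-SIINFEKL replicate 3. With both first replicates of TER119-SIINFEKL and OVA left out, the OVA value was -1.30 (adjusted p = 0.0027) and TER119-SIINFEKL was called (adjusted p = 0.0045), as it was in 7 of 29 alternatives. The gene lies inside Fyco1 on the other strand.

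Cx3cr1, the fractalkine receptor that marks cytotoxic effector cells and also monocytes and NK cells, was low. It was at 1.99, 3.04 and 1.49 RPKM in ERY1-OVA cells, 6.85, 0.943 and 1.93 RPKM in TER119-SIINFEKL cells, 6.10, 2.36 and 1.43 RPKM in OVA cells, 1.21 and 2.26 RPKM in SIINFEKL cells, and 10.7, 6.98 and 6.87 RPKM in Naive cells. Between 197 and 1437 reads per library lay behind these values. The first replicates of TER119-SIINFEKL and OVA came just under the lowest Naive library, and the other antigen libraries lay well under it. The log2 fold change was -1.94 ± 0.62 (SE, 3 against 3 libraries, limma adjusted p = 0.024) for ERY1-OVA, -1.79 ± 0.62 (adjusted p = 0.03) for TER119-SIINFEKL, -1.54 ± 0.62 (adjusted p = 0.055, not called) for OVA and -2.28 ± 0.70 (2 against 3 libraries, adjusted p = 0.041) for SIINFEKL. With both first replicates left out, a fit added after the data were seen, the values were -2.57 (adjusted p = 0.00043) for TER119-SIINFEKL and -2.12 (adjusted p = 0.0017) for OVA. OVA was called in 9 of 29 alternatives, with adjusted p between 0.00015 and 0.22 over all of them. Removing each library's trend with gene length and GC content ended the 3 calls of ERY1-OVA, TER119-SIINFEKL and SIINFEKL, as did leaving out Naive replicate 1. The ERY1-OVA call was also lost without ERY1-OVA replicate 1 or 3 (adjusted p up to 0.084), and the TER119-SIINFEKL call without its replicate 2 (-1.14) or 3 or Naive replicate 2 or 3 (up to 0.14). The SIINFEKL call was also lost without SIINFEKL replicate 1, OVA replicate 2, TER119-SIINFEKL replicate 3 or Naive replicate 2 or 3 (up to 0.34). In the annotation the gene spans parts of Wdr48, Ttc21a and Gm33858 on the other strand and of Gorasp1, Csrnp1 and Xirp1 on its own.

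Markers of cells that carry Cx3cr1 and Ccr2 were compared beside them. The NK cell list (5 of 6 genes measured, Tyrobp and Fcer1g among them) summed to 11.1 to 13.5 RPKM in ERY1-OVA cells, 7.92 to 32.4 in TER119-SIINFEKL cells, 10.9 to 28.3 in OVA cells, 8.33 to 12.5 in SIINFEKL cells and 17.7 to 32.4 in Naive cells. Within TER119-SIINFEKL and OVA its highest sums, 32.4 and 28.3 RPKM, were in replicate 1, the libraries where Cx3cr1 was also highest. The same held for SIINFEKL replicate 2 (12.5 RPKM). For Cx3cr1, ERY1-OVA and Naive went the other way. ERY1-OVA replicate 2 had the highest Cx3cr1 of its group (3.04 RPKM) and the lowest sum (11.1 RPKM). Naive replicate 3 had the lowest Cx3cr1 of its group (6.87 RPKM) and the highest sum (32.4 RPKM). Ccr2 was highest where the sum was highest in TER119-SIINFEKL (1.46 RPKM), OVA (3.19 RPKM), SIINFEKL (1.94 RPKM) and Naive (3.27 RPKM). In ERY1-OVA, replicate 2 had the highest Ccr2 (1.72 RPKM) and the lowest sum. The monocyte list (4 of 14 measured) summed to 190.1 to 317.1 RPKM in ERY1-OVA cells, 218.6 to 305.8 in TER119-SIINFEKL cells, 370.6 to 434.9 in OVA cells, 132.4 to 489.0 in SIINFEKL cells and 380.6 to 647.8 in Naive cells. Nearly all of it was Ly6c2, which CD8+ T cells also express, while Lyz2, the lysozyme of macrophages, lay between 0.24 and 11.5 RPKM. Cd68 did not follow the sum and was at 1.82 to 3.24 RPKM in Naive cells. It was at 4.46 to 10.3 RPKM in ERY1-OVA cells, 5.37 to 6.60 in TER119-SIINFEKL cells, 3.91 to 6.21 in OVA cells and 2.63 to 5.64 in SIINFEKL cells. Itgam lay between 9.89 and 20.5 RPKM. No gene of the neutrophil list (0 of 5) was among those measured. The part of other cells in the levels of Cx3cr1 and Ccr2 was not tested.

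Ccr2, the receptor for CCL2 that recruits cells to inflamed sites, was the least abundant. It was at 1.10, 1.72 and 1.53 RPKM in ERY1-OVA cells, 1.46, 1.07 and 0.839 RPKM in TER119-SIINFEKL cells, 3.19, 2.73 and 2.55 RPKM in OVA cells, 0.505 and 1.94 RPKM in SIINFEKL cells, and 2.79, 2.98 and 3.27 RPKM in Naive cells. OVA and Naive libraries interleaved, and the other 8 libraries all lay below both. The lowest value, in SIINFEKL replicate 1, rested on 94 reads, for which counting error alone gives an exact Poisson 95% interval of 0.408 to 0.618 RPKM. The log2 fold change from Naive was -1.08 ± 0.38 (SE, 3 against 3 libraries, limma adjusted p = 0.036) for ERY1-OVA, -1.46 ± 0.38 (adjusted p = 0.0063) for TER119-SIINFEKL, -0.10 ± 0.38 (adjusted p = 0.85) for OVA and -1.61 ± 0.42 (2 against 3 libraries, adjusted p = 0.023) for SIINFEKL. The TER119-SIINFEKL call held under every alternative that kept the gene (a filter at a mean of 3 RPKM removes it), and was -1.67 with both first replicates of TER119-SIINFEKL and OVA left out. The ERY1-OVA call was lost without its own replicate 1 or 3 or without any Naive library (adjusted p up to 0.11). A pseudocount of 1 moved the TER119-SIINFEKL and SIINFEKL values to -0.93 each, and both stayed called. The SIINFEKL value was -0.64 (adjusted p = 0.36) without SIINFEKL replicate 1 and -2.57 (adjusted p = 8.2e-05) without replicate 2, and the call was also lost without Naive replicate 2 or 3 and in a fit of those groups alone. How reads that match more than 1 gene were counted is not given in the sources used here, and the values of Ccr2 carry that uncertainty.

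**Figure D3:**
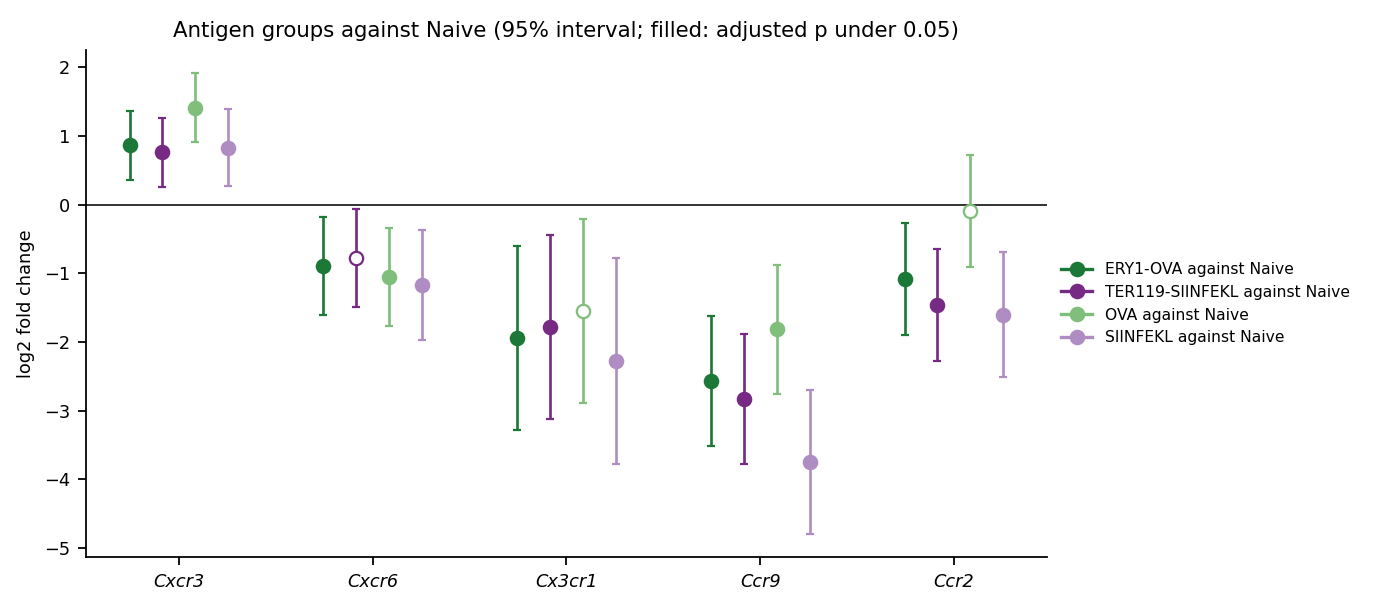
Log2 fold change (vertical axis) of each receptor (horizontal axis) in the 4 antigen groups against Naive. Points are limma estimates with unadjusted 95% intervals, filled where the adjusted p is under 0.05 and open otherwise. Cxcr3 lies above 0 in all 4 groups and Ccr9 below 0 in all 4, from -1.82 to -3.74, while Ccr2 after OVA sits at -0.10.

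Erythrocyte targeting was the question of the next comparisons. ERY1-OVA against OVA gave no call among the 5 receptors (1.06% of all genes were called). ERY1-OVA libraries lay below every OVA library for Ccr2, Ccr9 and Cxcr3, and 24.4% of all genes tested likewise had no overlap between these groups. The log2 fold change was -0.98 (95% interval -1.80 to -0.17, limma adjusted p = 0.21) for Ccr2, -0.75 (-1.69 to 0.19, adjusted p = 0.42) for Ccr9 and -0.55 (-1.05 to -0.05, adjusted p = 0.25) for Cxcr3. Intervals are not adjusted for the number of genes. Cxcr6 (0.16, interval -0.56 to 0.87, adjusted p = 0.86) and Cx3cr1 (-0.40, interval -1.74 to 0.94, adjusted p = 0.81) overlapped between the groups, and Cx3cr1 turned to 0.18 (adjusted p = 0.86) without both first replicates of TER119-SIINFEKL and OVA. Without either SIINFEKL library, whose spread enters the shared error, Ccr2 was called (adjusted p = 0.031 without replicate 1 and 0.032 without replicate 2).

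TER119-SIINFEKL against SIINFEKL likewise gave no call among the 5 (37.4% of all genes were called). Ccr9 differed by 0.92 (95% interval -0.14 to 1.97, limma adjusted p = 0.16) and Ccr2 by 0.15 (-0.76 to 1.05, adjusted p = 0.81). Both rested on the SIINFEKL pair, whose replicate 1 had 1.86 RPKM of Ccr9 and 0.505 RPKM of Ccr2, against 7.29 and 1.94 RPKM in replicate 2. Without SIINFEKL replicate 1 the differences were -0.07 (adjusted p = 0.92) for Ccr9 and -0.82 (adjusted p = 0.066) for Ccr2. Without SIINFEKL replicate 2 they were 1.90 (adjusted p = 0.0068) and 1.11 (adjusted p = 0.019). The direction thus depended on which SIINFEKL library was used. Cxcr3 differed by -0.07 (interval -0.63 to 0.50, adjusted p = 0.86), Cxcr6 by 0.40 (-0.40 to 1.19, adjusted p = 0.43) and Cx3cr1 by 0.49 (-1.01 to 1.99, adjusted p = 0.61). Without both first replicates of TER119-SIINFEKL and OVA, Cx3cr1 turned to -0.29 (adjusted p = 0.64), Ccr2 to -0.06 (adjusted p = 0.93) and Cxcr3 to 0.05 (adjusted p = 0.92).

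The effect of targeting was then set against itself between peptide and protein, and none of the 5 was called (37.7% of all genes were). Each value is TER119-SIINFEKL against SIINFEKL minus ERY1-OVA against OVA. The 6 libraries of TER119-SIINFEKL and OVA thus enter with a positive sign, and the 5 of SIINFEKL and ERY1-OVA with a negative sign. The largest difference was that of Ccr9, 1.67 ± 0.66 (SE, limma adjusted p = 0.06). It was called in 4 of 28 alternatives: array weights, the length and GC correction, and the fits without SIINFEKL replicate 2 or without TER119-SIINFEKL replicate 2. It was 2.65 (adjusted p = 0.0027) without SIINFEKL replicate 2, 0.68 (adjusted p = 0.36) without SIINFEKL replicate 1 and 1.09 (adjusted p = 0.22) without both first replicates of TER119-SIINFEKL and OVA. The corresponding value was 1.13 ± 0.57 (adjusted p = 0.13) for Ccr2, 0.48 ± 0.35 (adjusted p = 0.3) for Cxcr3, 0.89 ± 0.94 (adjusted p = 0.48) for Cx3cr1 and 0.24 ± 0.50 (adjusted p = 0.74) for Cxcr6. Ccr2 was 0.16 (adjusted p = 0.78) without SIINFEKL replicate 1 and 2.10 (adjusted p = 0.0014) without replicate 2. Cx3cr1 and Cxcr6 turned to -0.47 (adjusted p = 0.57) and -0.39 (adjusted p = 0.47) without both first replicates of TER119-SIINFEKL and OVA.

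**Figure D4:**
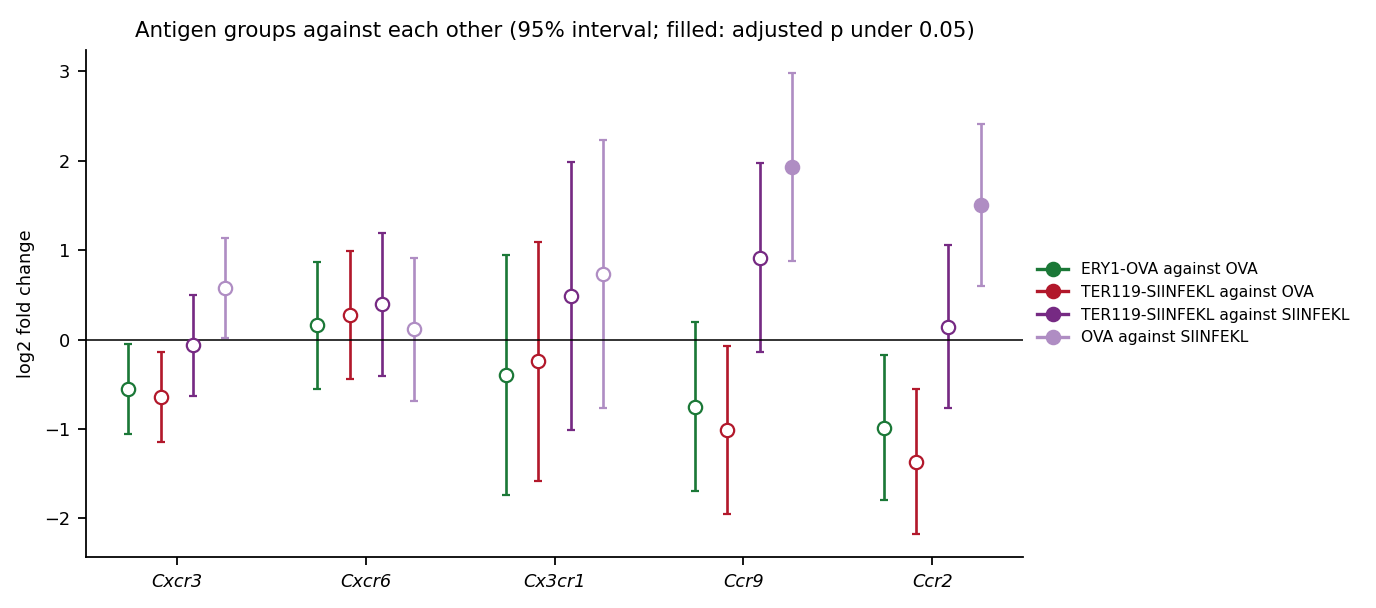
Log2 fold change (vertical axis) of each receptor (horizontal axis) between antigen groups. Points are limma estimates with unadjusted 95% intervals, filled where the adjusted p is under 0.05 and open otherwise. Ccr9 and Ccr2 in OVA against SIINFEKL are the filled points, at 1.93 and 1.51.

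Ccr9 and Ccr2 were higher after OVA than after SIINFEKL, although both calls rested on SIINFEKL replicate 1. OVA against SIINFEKL gave 2 calls of 5, a share near that of all genes (42.2%): Ccr9 at 1.93 ± 0.49 (SE, 3 against 2 libraries, limma adjusted p = 0.0067) and Ccr2 at 1.51 ± 0.42 (adjusted p = 0.012). Without SIINFEKL replicate 1 they were 0.94 (adjusted p = 0.12) and 0.54 (adjusted p = 0.21), and without replicate 2 they were 2.91 (adjusted p = 0.00033) and 2.48 (adjusted p = 9.4e-05). The libraries of Ccr9, Ccr2 and Cxcr3 did not overlap, as was so for 61.4% of all genes in these groups. Cxcr3 differed by 0.58 ± 0.26 (adjusted p = 0.088) and was called in 3 of 28 alternatives. Cxcr6 (0.12 ± 0.37, adjusted p = 0.82) turned to -0.13 without both first replicates of TER119-SIINFEKL and OVA.

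The targeted forms were not told apart by these receptors. ERY1-OVA against TER119-SIINFEKL gave no call among the 5 (0.562% of all genes were called), with adjusted p between 0.85 and 0.98. Their differences lay between -0.16 for Cx3cr1 (95% interval -1.50 to 1.18) and 0.38 for Ccr2 (-0.43 to 1.19), intervals too wide to show that the forms act alike. Without both first replicates of TER119-SIINFEKL and OVA, Cx3cr1 turned to 0.63 (adjusted p = 0.56), Cxcr6 to 0.26 (adjusted p = 0.73) and Cxcr3 to -0.01 (adjusted p = 0.99).

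Comparisons that cross carrier and form gave no call either. In TER119-SIINFEKL against OVA none of the 5 was called (1.51% of all genes were). Ccr2 (-1.36 ± 0.38, SE, 3 against 3 libraries, limma adjusted p = 0.11) and Cxcr3 (-0.65 ± 0.23, adjusted p = 0.26) lay below every OVA library, and 19.7% of all genes had no overlap between these groups. Ccr2 was called there in 6 of 28 alternatives, with an adjusted p of 0.0049 in a fit without the SIINFEKL group. In ERY1-OVA against SIINFEKL none of the 5 was called either (20.2% of all genes were), and Ccr9 was farthest apart at 1.18 ± 0.49 (3 against 2 libraries, limma adjusted p = 0.11). That value was 0.19 (adjusted p = 0.8) without SIINFEKL replicate 1 and 2.16 (adjusted p = 0.0058) without SIINFEKL replicate 2. Ccr2 there was 0.53 ± 0.42 (adjusted p = 0.4), and -0.44 (adjusted p = 0.36) and 1.49 (adjusted p = 0.0072) in those fits.

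Ordered by group mean of log2 RPKM from low to high, Ccr9 was at 1.88 in SIINFEKL, 2.80 in TER119-SIINFEKL, 3.06 in ERY1-OVA, 3.81 in OVA and 5.62 in Naive. Between neighbours in that order, the step between OVA and Naive passed the test and the other steps did not. Ccr2 had the same order, at -0.02 in SIINFEKL, 0.13 in TER119-SIINFEKL, 0.51 in ERY1-OVA, 1.49 in OVA and 1.59 in Naive, and no neighbouring pair passed. Cxcr3 from high to low was at 6.37 in OVA, 5.82 in ERY1-OVA, 5.78 in SIINFEKL, 5.72 in TER119-SIINFEKL and 4.96 in Naive, where the last step passed. For Cxcr6 and Cx3cr1 SIINFEKL was lowest (4.72 and 0.72) and Naive highest (5.90 and 3.00). The group next to Naive was TER119-SIINFEKL for Cxcr6 (5.12) and OVA for Cx3cr1 (1.46), and neither passed against Naive. The lowest place of SIINFEKL rested on replicate 1 for Ccr9, Ccr2 and Cx3cr1. SIINFEKL replicate 2 was at 2.87 for Ccr9 and 0.95 for Ccr2, above the TER119-SIINFEKL means. For Cx3cr1 it was at 1.18, above the ERY1-OVA mean (1.06). For Cxcr6 the place rested on replicate 2, as SIINFEKL replicate 1 was at 4.97, above the OVA mean (4.84).

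Levels of the receptors were also compared with each other across the 14 libraries, as a description of libraries that share group, depth and length bias. Pearson's r of log2 RPKM was 0.87 for Ccr9 with Cx3cr1, 0.85 for Cxcr6 with Cx3cr1 and 0.84 for Ccr2 with Ccr9. It was 0.66 for Ccr9 with Cxcr6, 0.65 for Ccr2 with Cx3cr1 and 0.36 for Ccr2 with Cxcr6. For Cxcr3 it was -0.64 with Cxcr6, -0.55 with Cx3cr1, -0.51 with Ccr9 and -0.09 with Ccr2. Among the 9793 genes tested, those most like Ccr9 were Rnf130 (0.96), Acpl2 (0.96) and Cnn3 (0.96). Most like Ccr2 were Idh2 (0.93), Slc16a5 (0.92) and Spr (0.92), and most like Cxcr3 were Arl4d (0.89), Rnpep (0.87) and Gyk (0.87). For Cxcr6 they included Pde6d (0.89) and Tnfsf10 (0.88). For Cx3cr1 they were Rplp2 (0.97), a ribosomal protein, Wdr89 (0.96) and Gm7808 (0.96), of which Rplp2 ran from 1473 to 3044 RPKM.

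Other chemokine receptors were measured beside them, among them Ccr7, Cxcr4 and Cxcr5. Ccr7, which brings resting T cells into lymph nodes, averaged 133.8 ± 20.4 RPKM in ERY1-OVA cells, 94.2 ± 10.0 in TER119-SIINFEKL cells, 125.3 ± 10.8 in OVA cells, 146.2 ± 15.3 in SIINFEKL cells and 195.6 ± 11.3 in Naive cells (SD, n = 3, and 2 for SIINFEKL). No antigen library reached the Naive range, and the largest fall was after TER119-SIINFEKL (-1.06 ± 0.13, limma adjusted p = 2.2e-05). After SIINFEKL, Ccr7 was -0.42 ± 0.14 (adjusted p = 0.06, not called). Cxcr4, the receptor for CXCL12, fell after ERY1-OVA (-1.20 ± 0.39, adjusted p = 0.026), TER119-SIINFEKL (-1.78 ± 0.39, adjusted p = 0.0022) and SIINFEKL (-1.80 ± 0.44, adjusted p = 0.015), and was -0.77 ± 0.39 (adjusted p = 0.12) after OVA. Cxcr5, the follicle-homing receptor, rose after ERY1-OVA (1.19 ± 0.31, adjusted p = 0.0076), TER119-SIINFEKL (1.24 ± 0.31, adjusted p = 0.0048) and OVA (1.11 ± 0.31, adjusted p = 0.0094). After SIINFEKL, Cxcr5 was 0.99 ± 0.34 (adjusted p = 0.064, not called).

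**Figure D5:**
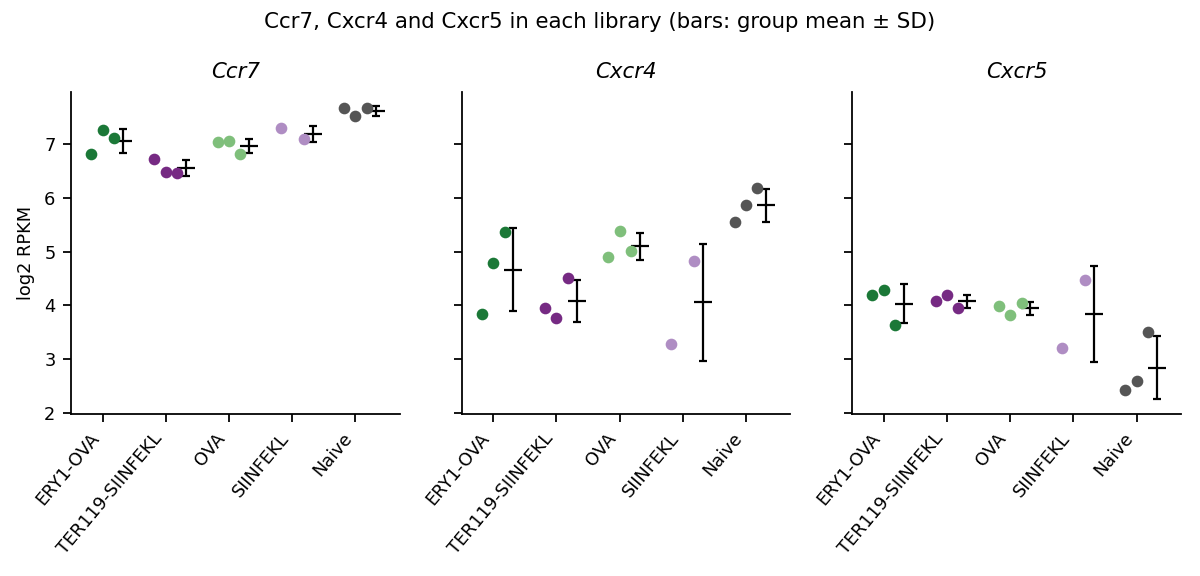
Ccr7, Cxcr4 and Cxcr5 as log2 RPKM (vertical axis) in all 14 libraries, by group (horizontal axis). Points are libraries and bars are the group mean ± SD (n = 3, and 2 for SIINFEKL). Ccr7 is highest in Naive, and Cxcr5 lies higher in every ERY1-OVA, TER119-SIINFEKL and OVA library than in the Naive libraries.

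Of the listed chemokines 5 of 19 were measured: Xcl1, Ccl3, Ccl4, Ccl5 and Cxcl10. After TER119-SIINFEKL 3 of the 5 were higher than in Naive cells and 1 was lower, where 47.6% of all genes were called. Xcl1, which attracts cross-presenting dendritic cells, had 172.8 to 362.4 RPKM in TER119-SIINFEKL cells and 60.4 to 91.8 RPKM in ERY1-OVA cells, against 15.1 to 28.4 RPKM in Naive cells (log2 fold changes 3.75 ± 0.33 and 2.00 ± 0.33, limma adjusted p = 1.8e-06 and 0.00041). Ccl4 (2.53 ± 0.38, adjusted p = 0.00012) and Ccl3 (2.66 ± 0.51, adjusted p = 0.00093), inflammatory chemokines, rose after TER119-SIINFEKL. Ccl5, a chemokine of effector and memory T cells, fell in 3 groups, by 2.81 ± 0.60 after SIINFEKL (adjusted p = 0.0076), 2.08 ± 0.53 after TER119-SIINFEKL (adjusted p = 0.0059) and 2.04 ± 0.53 after ERY1-OVA (adjusted p = 0.0083). None of the measured chemokines is a ligand of Ccr9, Cxcr6 or Cx3cr1, and Cxcl10 is the only ligand of Cxcr3 among them.

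Other genes of homing and egress, receptors and the transcription factor Klf2 among them, were tested in 16 of 18 listed cases. Of these, 3 were higher and 6 lower in ERY1-OVA cells, 4 and 8 in TER119-SIINFEKL cells, 4 and 4 in OVA cells and 2 and 4 in SIINFEKL cells, each against Naive. Klf2, called lower in all 4 groups, is counted both here and among the transcription factors below. The shares of all genes called in these comparisons were 39.9%, 47.6%, 47.6% and 15.9% in that order, and the OVA count is near its share. The median log2 fold change of the list was -0.22, -0.40, -0.23 and -0.06 in that order of groups, beside -0.02, 0.00, -0.04 and -0.01 over all genes. Itgae, the integrin chain that holds T cells to epithelium, was at 5.78 to 8.50 RPKM in ERY1-OVA cells, 2.59 to 7.15 in TER119-SIINFEKL cells, 10.5 to 14.7 in OVA cells, 5.69 to 10.2 in SIINFEKL cells and 45.7 to 55.4 in Naive cells. It fell in all 4 groups, most after TER119-SIINFEKL (-3.57 ± 0.31, limma adjusted p = 1.4e-06). Itgb1, a chain of integrins for matrix and vascular adhesion, rose in all 4, most after OVA (2.14 ± 0.21, adjusted p = 3.5e-06). S1pr1, the receptor for exit from lymphoid organs, fell most after TER119-SIINFEKL (-1.64 ± 0.11, adjusted p = 3.3e-07) and was -0.32 ± 0.12 (adjusted p = 0.094) after SIINFEKL.

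Transcription factors known to act on homing genes were tested in 20 of 21 cases. Against Naive, 2 were higher and 8 lower in ERY1-OVA cells, 2 and 10 in TER119-SIINFEKL cells, 3 and 7 in OVA cells and 1 and 6 in SIINFEKL cells. Of all genes 39.9%, 47.6%, 47.6% and 15.9% were called in these comparisons. The OVA count is near its share, and the ERY1-OVA and TER119-SIINFEKL counts are only a little above theirs. Klf2, which maintains S1pr1, fell in all 4, by 1.44 ± 0.14 (limma adjusted p = 5.8e-06) after ERY1-OVA, 1.92 ± 0.14 (adjusted p = 5.6e-07) after TER119-SIINFEKL, 1.03 ± 0.14 (adjusted p = 8e-05) after OVA and 0.99 ± 0.16 (adjusted p = 0.0015) after SIINFEKL. Rara, the retinoic acid receptor through which Ccr9 is induced, also fell in all 4, from -0.44 ± 0.13 (adjusted p = 0.03) after SIINFEKL to -1.62 ± 0.11 (adjusted p = 4.4e-07) after TER119-SIINFEKL. Lef1, a factor of resting T cells, fell in all 4, and E2f1, a factor of cell division, rose after ERY1-OVA, TER119-SIINFEKL and OVA and was 0.27 ± 0.22 (adjusted p = 0.44) after SIINFEKL.

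Among genes that carry the receptors' signal to the cell's movement, 32 of 36 listed symbols were tested. Against Naive, 9 were higher and 3 lower in ERY1-OVA cells, 9 and 6 in TER119-SIINFEKL cells, 7 and 6 in OVA cells and 3 and 0 in SIINFEKL cells. These counts are near or below the shares of all genes called (39.9%, 47.6%, 47.6% and 15.9%), and those of ERY1-OVA and TER119-SIINFEKL nearly equal theirs. The median log2 fold change of the list lay between 0.02 and 0.16. Gng2, a G protein gamma chain, rose in all 4 groups, by 0.81 ± 0.10 after ERY1-OVA (limma adjusted p = 4.2e-05) and 0.54 ± 0.10 after OVA (adjusted p = 0.00083). Arrb1, a beta-arrestin that withdraws receptors from the membrane, fell after ERY1-OVA (-1.06 ± 0.18, adjusted p = 0.00054), TER119-SIINFEKL (-1.06 ± 0.18, adjusted p = 0.0004) and OVA (-1.30 ± 0.18, adjusted p = 9.2e-05). Pik3r5, a regulatory chain of the lipid kinase coupled to these receptors, fell most after TER119-SIINFEKL (-1.20 ± 0.14, adjusted p = 1.4e-05). Rgs3, which shortens G protein signals, rose after ERY1-OVA (0.47 ± 0.10), TER119-SIINFEKL (0.49 ± 0.10) and SIINFEKL (0.57 ± 0.11) and was 0.06 ± 0.10 (adjusted p = 0.64) after OVA.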

How the data were processed

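The authors deposited 1 table of log2 RPKM values for 10106 genes in 14 libraries, made from poly(A) RNA with a stranded Illumina kit, per the labels' protocols. Per the submitters' processing notes, bcl2fastq 2.17.1.14, STAR 2.4.2 and the builds GRCm38 and mm10 were used. Their roles, the counter and the strand setting are not given in the sources used here. The deposited values had the form of a log2 RPKM with a small prior of 0.25 reads on average. Whole read numbers were recovered from them for 10097 genes (99.9%, within 0.01 read), which gave effective library sizes of 38389038 to 88721038 reads and recovered totals of 39963289 to 86197393 reads. Counting intervals cover counting error only.

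The deposited logarithms entered the fit unchanged. Genes with a mean of at least 1 RPKM were kept, leaving 9793 and removing 313; all 5 receptors passed. The model (limma 3.58.1, R 4.3.3) had a mean for each of 5 groups and a variance that follows the mean level, with 9 residual and 4.6 prior degrees of freedom. It gave 11 comparisons, with two-sided tests and Benjamini-Hochberg adjustment within each. Replicate numbers were not used as a term. The procedure was tested on simulated data. Alternatives, 29 in all, covered scaling, pseudocount, filter, moderation, weights, a replicate block, a length and GC correction and each library left out. Added after seeing the data were voom on the recovered reads, leaving out both first replicates of OVA and TER119-SIINFEKL, and a fit without SIINFEKL.

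The receptors and gene lists were chosen with earlier results of these data known. Named genes were the 5 receptors, up to 4 genes per list with the smallest adjusted p against Naive, and the 3 genes most like each receptor. Some results that these rules give are not reported here.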

Additional observations from a re-analysis of the deposited data

How the results depend on the processing

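Across 29 alternatives no called receptor value changed sign, and the Ccr9 calls against Naive held in all of them. Single receptor values stayed on their side of the threshold in 1445 cases, lost a call in 72 and gained 1 in 42. Array weights gave 818 calls over all genes in SIINFEKL against Naive, 2468 in ERY1-OVA against OVA, 2477 in ERY1-OVA against TER119-SIINFEKL, 1226 in ERY1-OVA against SIINFEKL and 3285 in TER119-SIINFEKL against OVA. Receptors called under array weights were 2 in SIINFEKL against Naive, 1 in ERY1-OVA against OVA, 1 in ERY1-OVA against TER119-SIINFEKL, 3 in TER119-SIINFEKL against OVA and 1 in the difference of the targeting effect. A fit of the compared groups alone gave 605 calls and 3 receptors in SIINFEKL against Naive, 2131 calls in TER119-SIINFEKL against SIINFEKL, 805 in ERY1-OVA against SIINFEKL, and 2 receptors in TER119-SIINFEKL against OVA. Without a trend 3 receptors were called in SIINFEKL against Naive, and 29 genes in ERY1-OVA against TER119-SIINFEKL. Quantile normalization gave 66 calls in ERY1-OVA against OVA. The length and GC correction gave 248 there, 93 in ERY1-OVA against TER119-SIINFEKL, and 1 receptor in the difference of the targeting effect. Under the filter at 3 RPKM, which drops Ccr2, 1 receptor was called in OVA against SIINFEKL. Voom on the recovered reads called 1 receptor in TER119-SIINFEKL against OVA. Without both first replicates of OVA and TER119-SIINFEKL, 13 genes were called in ERY1-OVA against OVA and 20 in TER119-SIINFEKL against OVA. A fit without SIINFEKL gave 359 calls and 1 receptor in ERY1-OVA against OVA, 165 calls in ERY1-OVA against TER119-SIINFEKL, and 280 calls and 1 receptor in TER119-SIINFEKL against OVA. The cause of these shifts was not tested.

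Leaving out 1 library at a time, calls over all genes ranged from 0 to 360 in ERY1-OVA against OVA, 1295 to 2218 in ERY1-OVA against SIINFEKL, 0 to 163 in ERY1-OVA against TER119-SIINFEKL, 364 to 2440 in SIINFEKL against Naive and 45 to 281 in TER119-SIINFEKL against OVA. Receptors called ranged from 2 to 5 in ERY1-OVA and TER119-SIINFEKL against Naive and 1 to 5 in SIINFEKL against Naive. They ranged from 0 to 1 in ERY1-OVA against OVA and TER119-SIINFEKL against OVA, and 0 to 3 in OVA against SIINFEKL. They ranged from 0 to 2 in ERY1-OVA against SIINFEKL, TER119-SIINFEKL against SIINFEKL and the difference of the targeting effect. A lone SIINFEKL library was taken to vary as the remaining groups did.

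Whether the replicate numbers pair the libraries was not tested. Same-numbered deviations correlated between -0.443 and 0.665 over 26 pairs, 14 of them over 0.1. By the mean of these correlations, 9 of 14 libraries were closest to their own number. With the replicate block, calls were 69 in ERY1-OVA against OVA and 32 in ERY1-OVA against TER119-SIINFEKL. The block also called Cx3cr1 in OVA against Naive (adjusted p = 0.037) and Cxcr6 in TER119-SIINFEKL against Naive (adjusted p = 0.042), and changed no other receptor call. Depth limits Ccr2 most, at 94 to 800 reads per library.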
